A study of Homo sapiens with 12 samples.

Results

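Genes that govern how a hepatocyte-like cell takes up, builds, coats and breaks down stored fat, 10 in number, were described across 3 genotypes of HepG2 spheroids. They are VLDLR, ANGPTL4, LPIN1, DGAT1, DGAT2, PLIN2, CIDEC, HILPDA, PNPLA2 and G0S2. These genes were listed by name, with earlier results of these data known. Each had exactly 1 probe set carrying a single gene symbol, so all 10 of 10 were measured, out of 18404 genes on the arrays. HepG2 is a human hepatocellular carcinoma line, grown here as multicellular spheroids in stirred flasks and harvested at 10 days of age. The arrays comprise 4 of HIF-2α knockdown cells, 4 of HIF-1α knockdown cells and 4 of wild type cells, which the series' text describes as separate spheroid experiments. Each knockdown line was targeted at 1 of the subunits that oxygen destabilizes in the hypoxia-inducible factors, HIF-1α (gene HIF1A) or HIF-2α (gene EPAS1). The arrays measure transcripts and not these proteins. The sources used here do not give the knockdown method, any control construct in the wild type cells or how many clones each line holds. Values are the log2 values that the authors deposited, and a difference is the first-named group's mean minus the second's.

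Cells keep surplus fatty acids as triglyceride inside lipid droplets, which carry a coat of perilipins and are emptied by lipases at their surface. Fatty acids reach the cell partly through lipoproteins, bound by receptors such as VLDLR or cut by lipoprotein lipase outside the cell. Hypoxic cells commonly accumulate droplets, and HIF is known to induce several of these genes in other settings, among them HILPDA, PLIN2, VLDLR, ANGPTL4 and LPIN1.

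The targeted transcripts were low on the arrays labelled for them. HIF1A read 9.25, 9.58, 9.38 and 9.64 in HIF-1α knockdown, against 10.62 to 10.79 in wild type, so that 42.5% of the wild type signal remained. EPAS1 read 9.67, 10.02, 9.87 and 9.98 in HIF-2α knockdown, against 10.83 to 11.26 in wild type, with 46.0% remaining. On the first principal component 1 array, replicate 2 of HIF-2α knockdown, scored 25.3, and the rest scored -11.8 to 3.26. The dimmest probe sets (0.1 percentile) read 6.33 to 6.35 on 3 arrays, namely replicate 4 of HIF-2α knockdown and replicates 1 and 2 of wild type, and 6.11 to 6.23 on the rest; these 3 are called the raised-floor arrays. The mean of 11 hepatocyte markers per array ran from 12.26 to 12.89 in HIF-2α knockdown, from 11.99 to 12.28 in HIF-1α knockdown and from 12.48 to 12.93 in wild type. The mean of 61 cytosolic ribosomal protein genes ran from 11.32 to 11.80, from 11.22 to 11.51 and from 11.47 to 11.96 in the same groups. The part of these array differences in the results below was not tested. Of 10 adipocyte markers, 8, including ADIPOQ, LEP, PLIN1 and FABP4, lay below the array's median gene on all 12 arrays, as did 8 of 10 macrophage, 6 of 8 endothelial and 7 of 9 stromal markers. In bulk RNA, fewer cells of a type and less RNA per cell cannot be told apart.

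Of the 10 genes 1 differed between groups at an adjusted p below 0.05, and only between the knockdowns: VLDLR was higher in HIF-2α knockdown than in HIF-1α knockdown. Against wild type, 0 members were called in HIF-2α knockdown, where 0.788% of all genes were called, and 0 in HIF-1α knockdown, where 0.962% were. Between the knockdowns, 1 of 10 members was called, against 2.77% of all genes. These calls come from limma with Benjamini-Hochberg adjustment over the 18404 genes. At an unadjusted p below 0.05 there were 3 members in HIF-2α knockdown against wild type (PLIN2 with a negative difference, VLDLR and DGAT2 with positive ones), where 12% of all genes lay below that value. In HIF-1α knockdown against wild type there was 1 (VLDLR, negative), with 13.2% of all genes. Between the knockdowns there were 8, all members but HILPDA and G0S2, with 13.6% of all genes. Because the members were chosen with earlier results of these data known, such counts beside the share of all genes do not test the set. Without HIF-2α knockdown replicate 2 the calls were PLIN2 against wild type, and PLIN2 and VLDLR between the knockdowns. Without the 3 raised-floor arrays they were as with all arrays. That setting drops replicates 1 and 2 of wild type. HIF1A itself was then not called in HIF-1α knockdown against wild type (difference -1.24, adjusted p = 0.103). A lack of calls against wild type in that setting therefore says little about the members. The 3 comparisons share arrays pairwise, so their values are set side by side and not counted as separate support.

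**Figure D1:**
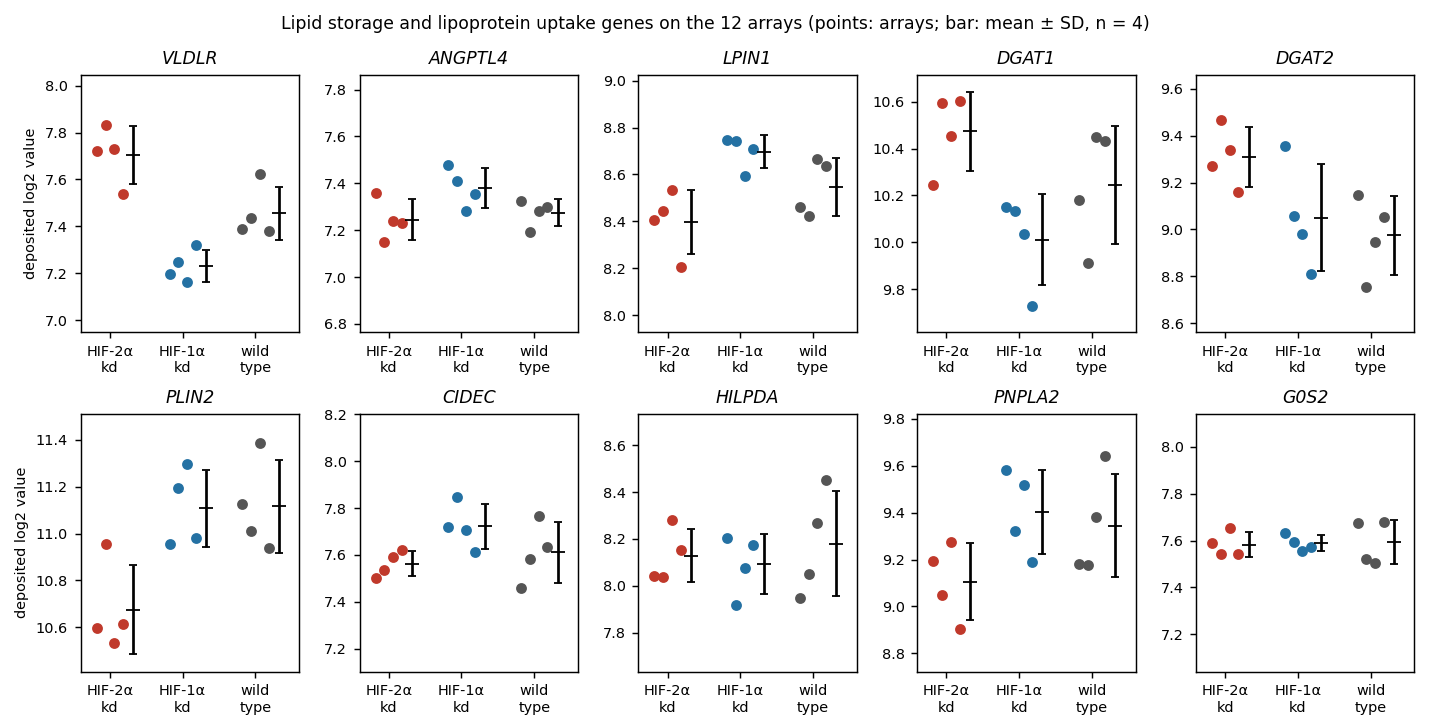
Deposited log2 values (y axis, each panel spanning the same 1.1 log2 units around its own centre) of the 10 genes on every array, by group; points are arrays and the bar is the mean ± SD (n = 4). VLDLR is the gene whose knockdown groups lie farthest apart relative to their spread, with HIF-2α knockdown at 7.54 to 7.83 and HIF-1α knockdown at 7.16 to 7.32.

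VLDLR encodes the very low density lipoprotein receptor, which binds triglyceride-rich lipoproteins at the cell surface. Its 4 values were 7.72, 7.83, 7.73 and 7.54 in HIF-2α knockdown, 7.20, 7.25, 7.16 and 7.32 in HIF-1α knockdown, and 7.39, 7.43, 7.62 and 7.38 in wild type. The knockdown groups did not overlap, and wild type lay between them, overlapping with HIF-2α knockdown through replicate 3 alone and not with HIF-1α knockdown. HIF-2α knockdown exceeded HIF-1α knockdown by 0.47 on the log2 scale (SE 0.07, 95% CI 0.32 to 0.63, adjusted p = 0.00327 by limma), a 1.39-fold higher signal. The means were 7.71 ± 0.12 in HIF-2α knockdown, 7.23 ± 0.07 in HIF-1α knockdown and 7.46 ± 0.11 in wild type (SD, n = 4 each). Neither difference from wild type passed. It was 0.25 for HIF-2α knockdown (SE 0.07, 95% CI 0.09 to 0.41, adjusted p = 0.144) and -0.22 for HIF-1α knockdown (SE 0.07, 95% CI -0.38 to -0.07, adjusted p = 0.162). The order of the means was thus HIF-2α knockdown, wild type, HIF-1α knockdown, with only the 2 ends separated by the test. VLDLR remained called between the knockdowns under all 21 other settings that gave it a value, with a difference of 0.43 to 0.53 and an adjusted p of 5.54e-05 to 0.0181. These settings are not separate checks, since several left the difference itself unchanged. Leaving out a wild type array, for example, altered only the shared spread. The level of VLDLR lay below the array's median gene on 10 of 12 arrays, and how much of so dim a signal is background was not tested. Of the 11 hepatocyte markers 10 had a positive difference between the knockdowns (median 0.37, 1 called). In HIF-2α knockdown against wild type 2 were positive and 9 negative (median -0.14). That median had the opposite sign to the VLDLR difference, while the 1 called marker was higher, the same sign as VLDLR. In HIF-1α knockdown against wild type all 11 were negative (median -0.47, 1 called), the same sign as VLDLR. Their part in the VLDLR differences was not tested.

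The 250 bases before the RefSeq start of VLDLR (GRCh38.p14, chr9:2621537-2621786, plus strand) are shown because VLDLR is the gene that passed. Capitals mark the HIF core letters ACGTG and GCGTG on either strand, where CACGT and CACGC are the same letters read from the other strand.
VLDLR: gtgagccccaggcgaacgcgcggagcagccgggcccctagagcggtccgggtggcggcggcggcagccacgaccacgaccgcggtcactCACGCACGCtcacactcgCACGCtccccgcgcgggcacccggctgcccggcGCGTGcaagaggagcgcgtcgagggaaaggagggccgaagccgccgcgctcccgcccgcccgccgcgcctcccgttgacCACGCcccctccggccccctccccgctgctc
This window held 5 matches, 4 of them CACGC. At least 1 match is found upstream in 43.2% of all 35116 RefSeq windows of this length, and 5 or more in 1.36%. A match is a run of letters and not a shown binding site.

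ANGPTL4, a secreted inhibitor of lipoprotein lipase, read 7.36, 7.15, 7.24 and 7.23 in HIF-2α knockdown, 7.48, 7.41, 7.28 and 7.35 in HIF-1α knockdown, and 7.32, 7.19, 7.28 and 7.30 in wild type. The 3 groups overlapped one another. The difference from wild type was -0.03 in HIF-2α knockdown (95% CI -0.16 to 0.10, adjusted p = 0.904) and 0.11 in HIF-1α knockdown (95% CI -0.02 to 0.23, adjusted p = 0.515). Between the knockdowns it was -0.13 (95% CI -0.26 to -0.00478, adjusted p = 0.343). ANGPTL4 lay below the median gene on all 12 arrays, where a dim probe set may hold background alone, so these intervals bound the measured signal only. Its RefSeq promoter window held 1 HIF core match.

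LPIN1 encodes lipin 1, the phosphatase that turns phosphatidate into diacylglycerol. It read 8.41, 8.44, 8.53 and 8.21 in HIF-2α knockdown, 8.75, 8.74, 8.59 and 8.71 in HIF-1α knockdown, and 8.46, 8.42, 8.67 and 8.63 in wild type. Every HIF-2α knockdown array lay below every HIF-1α knockdown array, with wild type spread across the gap. The difference between the knockdowns was -0.30 (SE 0.08, 95% CI -0.47 to -0.13) with an adjusted p of 0.0572, just short of the threshold. It passed without HIF-2α knockdown replicate 3 (difference -0.35, adjusted p = 0.0470) and without wild type replicate 3 (adjusted p = 0.0477), which enters only the shared spread, as well as after quantile normalization (-0.28, adjusted p = 0.0131) and with array weights (-0.28, adjusted p = 0.0174). Against wild type, LPIN1 differed by -0.15 in HIF-2α knockdown (adjusted p = 0.484) and by 0.15 in HIF-1α knockdown (adjusted p = 0.448).

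DGAT1 and DGAT2 encode the unrelated enzymes that add the last fatty acid to diacylglycerol. DGAT1 read 10.24, 10.59, 10.46 and 10.60 in HIF-2α knockdown, 10.15, 10.13, 10.03 and 9.73 in HIF-1α knockdown, and 10.18, 9.91, 10.45 and 10.43 in wild type. The knockdowns did not overlap, and wild type overlapped both. HIF-2α knockdown exceeded HIF-1α knockdown by 0.46 (SE 0.13, 95% CI 0.19 to 0.74, adjusted p = 0.0771). This is nearly the size of the VLDLR difference with a wider error, and it passed without HIF-2α knockdown replicate 1 (0.54, adjusted p = 0.0421) and without wild type replicate 2 (adjusted p = 0.0414), after quantile normalization (0.47, adjusted p = 0.0313) and with trend and robust eBayes (adjusted p = 0.0440). The difference from wild type was 0.23 in HIF-2α knockdown (adjusted p = 0.522) and -0.23 in HIF-1α knockdown (adjusted p = 0.488). Without the 3 raised-floor arrays the first of these was -0.01, so its sign was not stable.

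For DGAT2 the values were 9.27, 9.47, 9.34 and 9.16 in HIF-2α knockdown, 9.36, 9.06, 8.98 and 8.81 in HIF-1α knockdown, and 9.15, 8.76, 8.95 and 9.05 in wild type. Every HIF-2α knockdown array lay above every wild type array, although replicate 4 did so by 0.01. The difference was 0.33 (SE 0.11, 95% CI 0.09 to 0.57) and did not pass (adjusted p = 0.215). DGAT2 differed by 0.08 in HIF-1α knockdown against wild type (adjusted p = 0.843) and by 0.26 between the knockdowns (95% CI 0.02 to 0.50, adjusted p = 0.318).

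PLIN2, the perilipin that coats droplets in hepatocytes and most other cells, had the largest difference of any member from wild type. It read 10.60, 10.96, 10.53 and 10.61 in HIF-2α knockdown, 10.96, 11.20, 11.30 and 10.98 in HIF-1α knockdown, and 11.13, 11.01, 11.39 and 10.94 in wild type. Of the HIF-2α knockdown arrays 3 lay below all others, and replicate 2, the array that stood apart, reached into the lower end of wild type and HIF-1α knockdown. The difference of HIF-2α knockdown from wild type was -0.44 (SE 0.11, 95% CI -0.69 to -0.19), which leaves 73.7% of the wild type signal, and its adjusted p was 0.101. From HIF-1α knockdown it was -0.43 (SE 0.11, 95% CI -0.68 to -0.18, adjusted p = 0.0658). Without HIF-2α knockdown replicate 2 both passed, at -0.53 (adjusted p = 0.0484) against wild type and -0.53 (adjusted p = 0.0243) against HIF-1α knockdown. The difference from HIF-1α knockdown also passed without wild type replicate 3 (adjusted p = 0.0339), with array weights (-0.52, adjusted p = 0.00385) and among genes above the median level only (adjusted p = 0.0494). After quantile normalization, with all arrays, PLIN2 differed by -0.50 from wild type (adjusted p = 0.00260) and by -0.47 from HIF-1α knockdown (adjusted p = 0.00158). In HIF-1α knockdown PLIN2 stood at -0.01 from wild type (95% CI -0.26 to 0.24, adjusted p = 0.988).

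The corresponding window before the PLIN2 start (GRCh38.p14, chr9:19127493-19127742, minus strand) is shown for comparison with VLDLR, with the same letters in capitals.
PLIN2: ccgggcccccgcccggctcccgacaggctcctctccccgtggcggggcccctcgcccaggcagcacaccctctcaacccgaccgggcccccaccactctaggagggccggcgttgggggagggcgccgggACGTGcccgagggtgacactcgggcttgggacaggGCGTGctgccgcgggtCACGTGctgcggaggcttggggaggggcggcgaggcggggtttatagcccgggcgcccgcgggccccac
It held 4 matches, of which an overlapping pair forms 1 palindrome read on both strands; 3.22% of all windows hold as many or more. VLDLR and PLIN2 each had several matches. Their differences between the knockdowns had opposite signs, and that of PLIN2 was not called with all arrays. Any relation between matches and differences was not tested. Windows were matched for 7 of the 10 genes. G0S2 had 4 matches, LPIN1 had 1 in a single window of its 3, and PNPLA2 and CIDEC had 0. HILPDA, DGAT1 and DGAT2 were not analysed here.

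CIDEC, which promotes fusion of droplets in adipocytes and in fatty liver, read 7.50, 7.54, 7.59 and 7.62 in HIF-2α knockdown, 7.72, 7.85, 7.71 and 7.61 in HIF-1α knockdown, and 7.46, 7.58, 7.77 and 7.64 in wild type. The groups overlapped, and CIDEC lay below the array's median gene on 8 of 12 arrays. The difference between the knockdowns was -0.16 (95% CI -0.31 to -0.01, adjusted p = 0.326). From wild type CIDEC differed by -0.05 in HIF-2α knockdown (adjusted p = 0.854) and by 0.11 in HIF-1α knockdown (adjusted p = 0.565).

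The gene that empties droplets and its inhibitors gave no call. PNPLA2 encodes adipose triglyceride lipase, which starts the breakdown of droplet triglyceride, and HILPDA and G0S2 encode small proteins that inhibit it. PNPLA2 read 9.20, 9.05, 9.28 and 8.90 in HIF-2α knockdown, 9.58, 9.32, 9.52 and 9.19 in HIF-1α knockdown, and 9.18, 9.18, 9.38 and 9.64 in wild type. The HIF-2α knockdown arrays tended to the low end, with overlap. PNPLA2 differed by -0.24 in HIF-2α knockdown against wild type (95% CI -0.49 to 0.01, adjusted p = 0.441), by 0.06 in HIF-1α knockdown (adjusted p = 0.891) and by -0.30 between the knockdowns (95% CI -0.55 to -0.05, adjusted p = 0.259).

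HILPDA, also known as hypoxia-inducible lipid droplet-associated protein, read 8.04, 8.04, 8.28 and 8.15 in HIF-2α knockdown, 8.20, 7.92, 8.08 and 8.17 in HIF-1α knockdown, and 7.95, 8.05, 8.27 and 8.45 in wild type. Wild type alone spanned 0.50 log2 units and contained every HIF-2α knockdown value. The HILPDA difference from wild type was -0.05 for HIF-2α knockdown (95% CI -0.27 to 0.17, adjusted p = 0.902) and -0.09 for HIF-1α knockdown (95% CI -0.31 to 0.13, adjusted p = 0.795). Between the knockdowns it differed by 0.04 (95% CI -0.18 to 0.26, adjusted p = 0.943). The lower bounds against wild type correspond to 0.83 times its signal for HIF-2α knockdown and 0.81 times for HIF-1α knockdown. They bound the measured signal only, and the part of background in it was not tested. The knockdown cells kept 46.0% of the EPAS1 signal and 42.5% of the HIF1A signal, respectively.

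G0S2 was the flattest of the 10, reading 7.59, 7.54, 7.65 and 7.54 in HIF-2α knockdown, 7.63, 7.59, 7.55 and 7.57 in HIF-1α knockdown, and 7.67, 7.52, 7.50 and 7.68 in wild type. Each of its 3 differences was -0.01 (95% CI against wild type -0.13 to 0.11 for HIF-2α knockdown and -0.12 to 0.11 for HIF-1α knockdown). G0S2 lay below the median gene on 11 of 12 arrays, where a dim probe set may hold background alone, so its intervals bound the measured signal only.

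**Figure D2:**
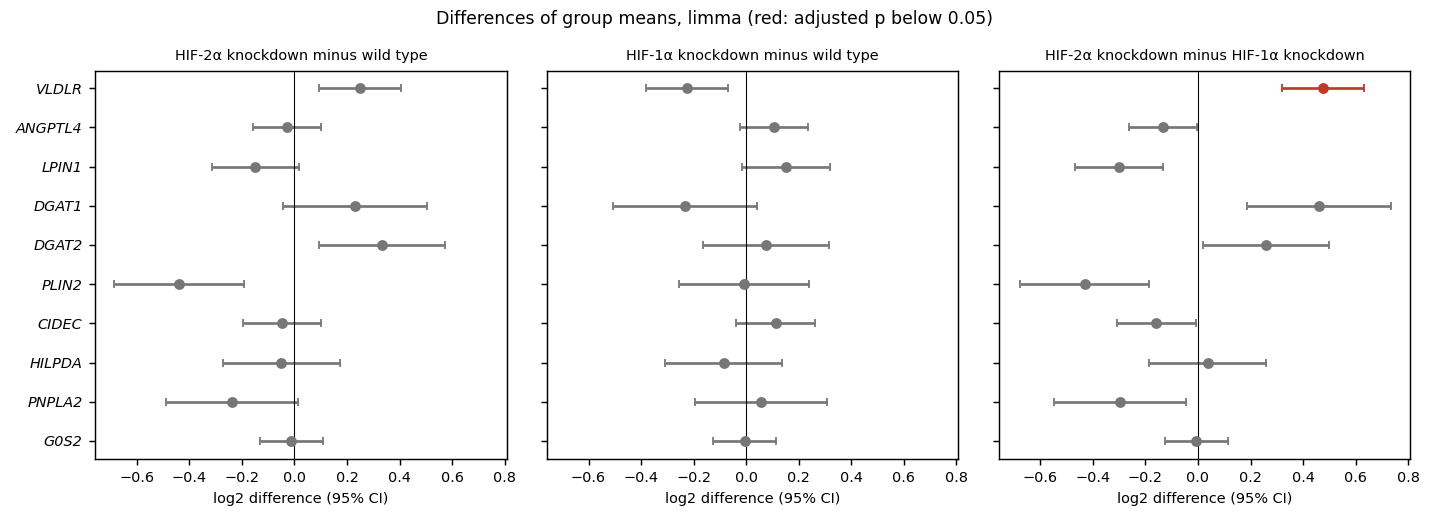
Log2 differences of group means (x axis) with limma's 95% confidence intervals for the 10 genes (y axis) in the 3 comparisons; red marks an adjusted p below 0.05. VLDLR between the knockdowns, at 0.47 with an interval of 0.32 to 0.63, is the red point.

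Of the 3 comparisons, that between the knockdowns had the most members whose groups were apart. There 3 members had groups that did not overlap (VLDLR and DGAT1 above, LPIN1 below in HIF-2α knockdown), against 9.08% of all genes. In HIF-2α knockdown against wild type there was 1 (DGAT2, above), with 5.31% of all genes, and in HIF-1α knockdown 1 (VLDLR, below), with 7.84%. The exact two-sided permutation p over arrays was 0.0286 for these 5 of 30 tests, the smallest that 4 against 4 allow, and 0.171 after Benjamini-Hochberg adjustment over the 30. The choice of members with earlier results known applies here too, so the counts do not test the set. The median difference over the members was -0.04 in HIF-2α knockdown against wild type (all genes -0.01), 0.03 in HIF-1α knockdown (all genes 0.00494) and -0.07 between the knockdowns (all genes -0.01).

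The members differed in their spread among arrays of a group. Within-group SD ran from 0.07 for G0S2 to 0.21 for DGAT1, against a median of 0.10 over all genes. The lowest were those of G0S2 and ANGPTL4 (0.08), which lay below the array's median gene on 11 and 12 of 12 arrays. A low SD at so dim a signal does not show that a gene was well measured. DGAT1, PNPLA2, PLIN2, DGAT2 and HILPDA were each more variable than at least 82.0% of genes, and VLDLR more than 51.9%. Standard errors of a difference accordingly ran from 0.06 to 0.13.

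Across the 12 arrays the closest pair of members was LPIN1 and PNPLA2 (r = 0.75, and 0.60 after each group's mean was removed). DGAT1 and DGAT2 followed one another similarly (r = 0.64, within groups 0.55). Within groups, LPIN1 and PNPLA2 were not the closest pair. VLDLR and LPIN1 stood at 0.66 there (-0.53 over all arrays), DGAT1 and CIDEC at 0.65 (-0.08) and HILPDA and PNPLA2 at 0.63 (0.47). VLDLR and DGAT1 correlated at 0.64 over all arrays but at -0.04 within groups, so that relation lay in the group means. These coefficients describe 12 arrays that share groups, scaling and amplification. Among all other genes, the 3 with the profile most like VLDLR were DNAJC6 (r = 0.95, within groups 0.76), ELOVL7 (r = 0.95, within groups 0.70) and CARMIL1 (r = 0.95, within groups 0.74). They were picked for following VLDLR over all arrays, group means included, so a like difference between the knockdowns was fixed by the choice. It was 0.26 for DNAJC6, 0.73 for ELOVL7 and 0.69 for CARMIL1. Unlike VLDLR, CARMIL1 was also called against wild type, higher in HIF-2α knockdown (adjusted p = 0.00885) and lower in HIF-1α knockdown (adjusted p = 0.0108). Those most like HILPDA were SYMPK, PRKY and MCM3AP, each at r = 0.92, and none of them was called in any comparison.

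**Figure D3:**
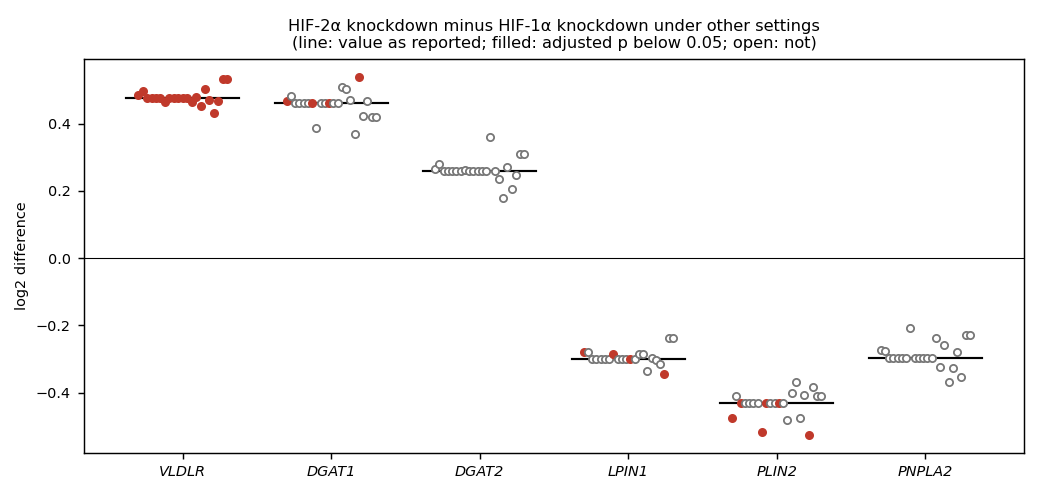
Log2 difference of HIF-2α knockdown minus HIF-1α knockdown (y axis) for the 6 members with the largest differences (x axis), as reported (line) and under each other setting (points, filled where the adjusted p was below 0.05). VLDLR is filled at all 21 points, PLIN2 at 6 of 22, LPIN1 and DGAT1 at 4 of 22 each, and DGAT2 and PNPLA2 at 0.

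The wider machinery of fat storage and uptake was read from 8 lists of 95 genes, of which 78 were measured. These lists, too, were chosen with earlier results of these data known, so their counts do not test them as sets. In HIF-2α knockdown against wild type 0 of the 78 were called by limma and 14 lay at an unadjusted p below 0.05, where 0.788% and 12% of all genes did. After quantile normalization 6 were called, all lower (SORL1, SOAT2, SLC27A4, LPIN2, PPARG and PPARGC1A). SORL1, at -0.54 (adjusted p = 0.0560), was called alone with the filter on dim genes, with trend and robust eBayes, with the replicate block and without HIF-1α knockdown replicate 1 or 3. HIF-1α knockdown against wild type gave 1 higher and 0 lower, and the knockdowns against each other 0 higher and 4 lower in HIF-2α knockdown. Of all genes, 0.962% were called in the first of these and 2.77% in the second, where 178 were higher and 331 lower. Unadjusted, these comparisons had 12 and 21 of the 78, against 13.2% and 13.6% of all genes. Without HIF-2α knockdown replicate 2 the calls were 0, 2 (RAB18 and PNPLA3) and 5 (SOAT2, SORL1, SLC27A4, ABHD6 and AGPAT5, all lower), and without the raised-floor arrays 0, 0 and 2 (SLC27A4 lower, CES2 higher). List medians between the knockdowns ran from -0.18 for the 4 cholesteryl ester genes to 0.03 for the 7 extracellular lipase genes, against -0.01 for all genes. Those of the droplet coat, glycerolipid synthesis, lipolysis and fatty acid uptake lists were 0.02, 0.01, 0.00979 and -0.01.

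Of 10 lipoprotein receptors and their regulators, SORL1, a sorting receptor of the same receptor family as VLDLR, was lower in HIF-2α knockdown than in HIF-1α knockdown. It read 9.73, 10.15, 9.97 and 9.93 in HIF-2α knockdown, against 10.21, 10.45, 10.75 and 10.47 in HIF-1α knockdown, with no overlap. The difference was -0.53 (SE 0.12, adjusted p = 0.0337), opposite in sign to that of VLDLR. The call was lost without any 1 of HIF-1α knockdown replicates 2, 3 and 4 or HIF-2α knockdown replicates 1, 3 and 4 (difference -0.43 to -0.53, adjusted p 0.0684 to 0.121), after centring each array (adjusted p = 0.0844), with all probe sets fitted (0.0626) and without the raised-floor arrays (0.122). The list's median was -0.13, with 9 of 10 members negative, while in HIF-2α knockdown against wild type all 10 measured members were negative with a median of -0.10 and 0 called (3 at an unadjusted p below 0.05).

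SOAT2, which esterifies cholesterol in hepatocytes, had the largest difference of the 4 and was lower in HIF-2α knockdown. It read 8.76, 8.83, 9.07 and 8.70 in HIF-2α knockdown, against 9.51, 9.39, 9.66 and 9.26 in HIF-1α knockdown (difference -0.61, SE 0.11, adjusted p = 0.0104). It was the 1 of 4 measured cholesteryl ester genes that passed, and the call held without each single array but not without the 3 raised-floor arrays (-0.56, adjusted p = 0.0517).

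SLC27A4, a fatty acid transport protein, was also lower. It read 8.48, 8.37, 8.50 and 8.30 in HIF-2α knockdown, against 8.84, 8.70, 8.79 and 8.77 in HIF-1α knockdown (difference -0.36, SE 0.07, adjusted p = 0.0150). It was the 1 of 13 fatty acid uptake and activation genes called. Without HIF-1α knockdown replicate 3 (-0.36, adjusted p = 0.0568) or HIF-2α knockdown replicate 4 (-0.33, adjusted p = 0.0546) it did not pass.

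LPIN2, a second lipin, was the 1 of 13 glycerolipid synthesis genes called. It read 8.65, 8.67, 8.76 and 8.57 in HIF-2α knockdown, against 8.90, 8.90, 9.07 and 9.07 in HIF-1α knockdown (difference -0.32, SE 0.07, adjusted p = 0.0256), close in size to the -0.30 of LPIN1. The LPIN2 call was lost without HIF-1α knockdown replicate 3 or 4 or HIF-2α knockdown replicate 2 or 4 (-0.29 to -0.32, adjusted p 0.0501 to 0.103), after centring (0.0506) and without the raised-floor arrays (0.0617).

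RAB18, a small GTPase found on lipid droplets, was the 1 of 12 droplet proteins called, and it was higher in HIF-1α knockdown. It read 9.72, 10.19, 10.11 and 10.13 there, against 9.16, 9.44, 9.47 and 9.07 in wild type (difference 0.75, SE 0.16, adjusted p = 0.0386). The adjusted p lay between 0.0646 and 0.134 without wild type replicate 1, 2 or 4 or HIF-1α knockdown replicate 2, 3 or 4, with differences of 0.68 to 0.81. It was 0.0610 after quantile normalization, 0.0845 after centring each array, 0.0578 with all probe sets fitted and 0.232 without the raised-floor arrays.

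No gene passed in the remaining 3 lists. Of 11 lipolysis genes, PNPLA3, a lipase relative of PNPLA2, had the smallest p, at 0.42 in HIF-1α knockdown against wild type (SE 0.11, adjusted p = 0.0848). It passed without wild type replicate 3 (0.48, adjusted p = 0.0386) and without HIF-2α knockdown replicate 1 or 2 (adjusted p = 0.0485 and 0.0499), with only the 2 groups in the fit (0.0417), with array weights (0.0255) and with the replicate block (0.0459). The 8 PPAR receptors and partners had a median of -0.13 between the knockdowns, with 7 negative. PPARA, a nuclear receptor for fatty acids in liver, differed from wild type by 0.20 when HIF-1α was knocked down (SE 0.06, adjusted p = 0.162). ANGPTL8, a partner of the ANGPTL family in lipase control, had the smallest p of the 7 extracellular lipase genes, at -0.09 in HIF-2α knockdown (adjusted p = 0.602).

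**Figure D4:**
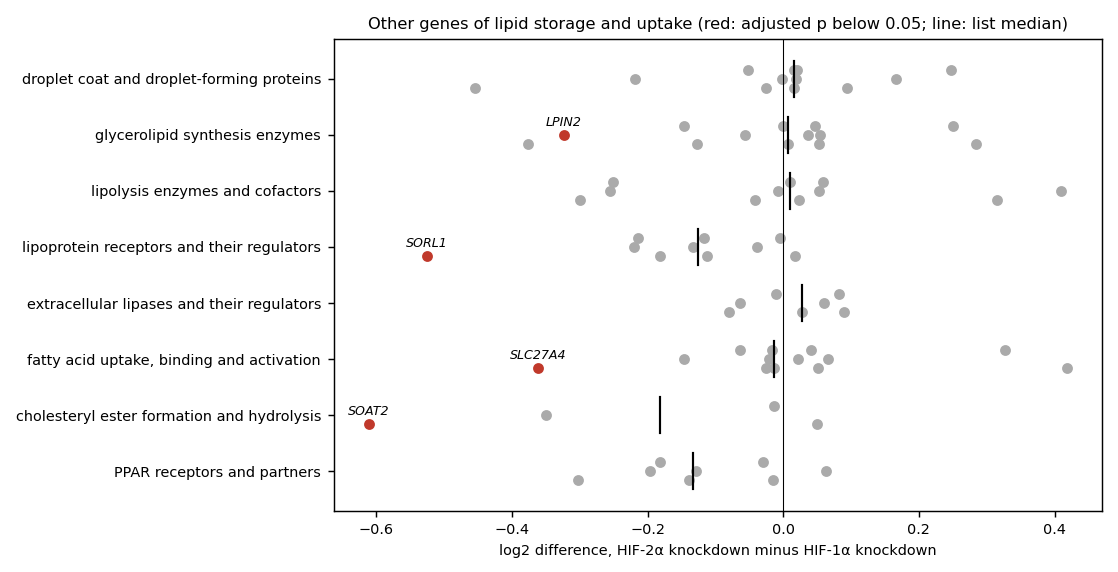
Log2 differences of HIF-2α knockdown minus HIF-1α knockdown (x axis) for the 78 measured genes of the 8 lists (y axis), with each list's median as a line and called genes in red. The 4 red points, SOAT2 at -0.61, SORL1 at -0.53, SLC27A4 at -0.36 and LPIN2 at -0.32, all lie left of 0.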

How the data were processed

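The data are 1 table of log2 values deposited by the authors, 32321 probe sets by 12 arrays. That the scale is log2 was inferred from the range, 5.93 to 15.1. How they were background-corrected, summarized and normalized is not given in the sources used here. RNA was amplified and labelled before hybridization, per the labels' protocols.

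Gene symbols came from GEO's platform annotation and were updated through Entrez identifiers in RefSeq (GRCh38.p14). Of 19158 probe sets with 1 symbol, the brightest per gene over all arrays was kept. No gene was filtered out.

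Groups were compared with limma 3.58.1 in R 4.3.3 (lmFit with 1 mean per group over all 12 arrays, eBayes), with Benjamini-Hochberg adjustment over 18404 genes and a threshold of 0.05. Intervals are limma's, at 95%. The script was tested on simulated data with independent noise, which holds no differences between whole arrays like those seen here. How often it finds differences of the sizes seen here is not reported. A p-value here measures only spread among these arrays, whose small number limits precision.

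The members and lists were chosen with earlier results of these data known. Named are all members, HIF1A, EPAS1, the called genes of each list or else its gene of smallest p, and the 3 genes most correlated with HILPDA and with each called member. Other settings included quantile normalization, median centring, a filter on dim genes, array weights and leaving out arrays. Promoter sequences are RefSeq's.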

Additional observations from a re-analysis of the deposited data

How the results depend on the processing

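Each result was recomputed under 10 other settings and without each of the 12 arrays. The number of members called between the knockdowns was 4 after quantile normalization (VLDLR, DGAT1, LPIN1 and PLIN2), 2 with trend and robust eBayes, 3 with array weights and 1 to 3 without single arrays. In HIF-2α knockdown against wild type it was 1 after quantile normalization and 0 to 1 without single arrays, PLIN2 in each case, and in HIF-1α knockdown against wild type it was 0 throughout. With the filter on dim genes VLDLR, ANGPTL4, G0S2 and CIDEC had no value.

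Of all genes, 145 were called in HIF-2α knockdown against wild type (88 higher, 57 lower), 404 after quantile normalization (141 and 263), 72 after centring each array (34 and 38), 64 with only the 2 groups in the fit, 285 with trend and robust eBayes, 37 without the 3 raised-floor arrays (14 and 23) and 61 to 219 without single arrays. In HIF-1α knockdown against wild type 177 were called (150 and 27), 254 after quantile normalization (140 and 114), 85 after centring (67 and 18), 396 with 2 groups, 288 with trend and robust eBayes, 605 with array weights, 22 without the raised-floor arrays (8 and 14) and 50 to 483 without single arrays. Between the knockdowns the number was 509 (178 and 331), with 888 after quantile normalization (342 and 546), 337 after centring (133 and 204), 980 with array weights, 259 without the raised-floor arrays (119 and 140) and 211 to 618 without single arrays. The causes were not tested.

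The replicate block, with the labels' replicate number as a term, called 2 members between the knockdowns (VLDLR and PLIN2) and 202, 234 and 562 genes in the 3 comparisons. Same-numbered arrays deviated together at r of -0.17 to 0.64, over 0.1 in 5 of 12 pairs. Differently numbered arrays did so at -0.60 to 0.57. An array's best partner in another group bore its own number in 5 of 24 cases. The labels do not state whether arrays of the same number were handled together, and these correlations cannot decide it.

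Of 30 member differences 12 changed sign somewhere, none of them called in either form. In HIF-2α knockdown against wild type, HILPDA was 0.0417 with array weights, and without the raised-floor arrays G0S2 was 0.00443 and DGAT1 was -0.0119. Without single arrays HILPDA was -0.127 to 0.0404, ANGPTL4 -0.0670 to 0.00293, CIDEC -0.0988 to 0.00491 and G0S2 -0.0425 to 0.0162. In HIF-1α knockdown against wild type, single arrays gave HILPDA -0.163 to 0.00385, PLIN2 -0.0718 to 0.0822, DGAT2 -0.0263 to 0.155, PNPLA2 -0.00207 to 0.155, G0S2 -0.0366 to 0.0222 and EPAS1 -0.0860 to 0.0551. PLIN2 was 0.0105 with array weights, DGAT2 was -0.0122 and PNPLA2 -0.0412 after quantile normalization, and PNPLA2 was -0.109 without the raised-floor arrays. Between the knockdowns, HILPDA was -0.0218 to 0.0733 and G0S2 -0.0300 to 0.00858 without single arrays. G0S2 was 0.0143 after quantile normalization, 0.0151 after centring, 0.0131 with array weights and 0.00668 without the raised-floor arrays.

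Leaving out 1 array moved 5 member differences by over 1.5 times without a change of sign, none of them called. Against wild type, HIF-2α knockdown differed in LPIN1 by -0.0849 without its replicate 4, in DGAT1 by 0.118 without wild type replicate 2 and in PNPLA2 by -0.141 without wild type replicate 4. HIF-1α knockdown differed in DGAT1 by -0.140 without its replicate 4, and in CIDEC by 0.0605 without wild type replicate 1 and by 0.0700 without its own replicate 2.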
